A study of Homo sapiens with 4 samples.

Results

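The TNF and lymphotoxin system was followed here through 10 genes in prostate cancer cells in which ESS2 was knocked down. They are the ligands LTB, LTA, TNF, TNFSF10 and TNFSF15 and the receptors LTBR, TNFRSF1A, TNFRSF1B, TNFRSF10A and TNFRSF10B, taken as every array probe whose transcript accession maps to one of these symbols. All 10 genes were found, with 13 probes, out of 25122 genes with 35080 probes. The set was chosen on the shESS2 over shC differences themselves, since LTB had the largest decrease of any gene well above background on both DU145 arrays and a large one in PC3. The differences between shESS2 and shC are therefore given as a description, with no test.

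ESS2 is a nuclear protein associated with the spliceosome, and the study asked how its depletion alters gene expression in prostate cancer cells. PC3 and DU145 are established human prostate cancer lines that grow without androgen. Each line carried either a control short hairpin RNA against luciferase (PC3-shC, DU145-shC) or a hairpin against ESS2 (PC3-shESS2, DU145-shESS2), and the parent line is what control and knockdown cells share. Total RNA from each of the 4 conditions was hybridised to 1 one-colour Agilent array. With 1 array per condition, no difference within a line has a replicate check, and every array value below is a single measurement. How many hairpin sequences or clones stood behind each condition was not given in the sources used here.

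TNF superfamily ligands are mostly membrane-anchored trimers that are recognised by receptors on the same or neighbouring cells. TNF acts through TNFRSF1A and TNFRSF1B. LTA forms a homotrimer that also uses these receptors, whereas LTB anchors LTA at the cell surface in a heterotrimer that signals through LTBR. TNFSF10, also called TRAIL, can trigger apoptosis through the death receptors TNFRSF10A and TNFRSF10B, and TNFSF15 binds another receptor, TNFRSF25. Most of these receptors activate NF-κB, and TNF and LTB are themselves among the genes that NF-κB induces, most prominently in lymphocytes and macrophages.

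The arrays were similar in overall brightness, with 50.8% to 52.6% of non-control spots well above background and no such spot saturated. ESS2, the targeted gene, was lower in both knockdowns. Its signal was 133 in PC3-shC and 53.6 in PC3-shESS2, a 2.74-fold difference, and 85.7 in DU145-shC and 17.3 in DU145-shESS2, a 5.09-fold difference. Probes spotted 10 times on each array gave a median SD of the log2 ratio between spots of 0.0463 in PC3 and 0.053 in DU145, and for the few such probes under a signal of 50 the median SD was 0.201 and 0.202. These SDs cover spot error only. Across all genes that were clear of background in 1 or both conditions of a line, 3.87% of 16764 were more than 2-fold lower and 3.88% more than 2-fold higher in PC3-shESS2. In DU145-shESS2, 2.47% of 16842 were lower and 2.36% higher by that measure. In PC3 649 genes were lower and 650 higher, and the lower ones made up 61.1% of those past 2-fold with scaling to the median, which moved the median of all genes by -0.10 on the log2 scale, and 40.3% in the authors' scaled values. In DU145 their share was 51.2%, against 35.6% after normexp background correction.

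The epithelial markers EPCAM, CDH1, KRT8, KRT18 and KRT19 were well above background on all 4 arrays, whereas KLK3, the prostate-specific antigen gene, was not on any. EPCAM was 6.11-fold lower in DU145-shESS2. Because LTB and TNF are best known from leukocytes, the leukocyte markers were examined too. CD3E and MS4A1, which define T and B cells, were not well above background on any array. PTPRC, the pan-leukocyte antigen CD45, was 59.7 and 60.0 in PC3-shC and PC3-shESS2, and 27.2 and 30.0 in the DU145 pair. Of the 9 leukocyte markers matched, of 11 listed, 4 to 6 were well above background per array, and their summed signal ran from 3303 to 4028 in PC3 and from 3081 to 3567 in DU145. CD4, which made up most of that sum, was between 2690 and 3660. CD14, a monocyte marker, was 221 in PC3-shC and 54.7 in PC3-shESS2, but 172 and 274 in the DU145 pair. Of the 4 fibroblast and endothelial markers, DCN was dim on all arrays and 2 to 3 per array were well above background. Their summed signal was 653.6 in PC3-shC and 269 in PC3-shESS2, and 118 and 116.4 in the DU145 pair. The difference in PC3 was mainly that of PECAM1, an endothelial and leukocyte adhesion gene, at 338 and 16.4 (22.7-fold lower), which was dim in DU145. The part of these markers in the differences of LTB and TNF was not tested.

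LTB was the member with the largest difference in both lines. Its signal was 714 in PC3-shC and 79.1 in PC3-shESS2, and 794 in DU145-shC and 21.1 in DU145-shESS2. Both control arrays were thus high and close to each other, and both knockdown arrays low, with DU145-shESS2 the lowest of the 4. After scaling, LTB was 9.95-fold lower in PC3-shESS2 (log2 ratio -3.32) and 38.7-fold lower in DU145-shESS2 (log2 ratio -5.27). Counting genes with both signals well above background, it held rank 39 of 15763 from the largest decrease in PC3 and rank 1 of 15933 in DU145. The size depended on how background was treated. After normexp correction with an offset of 50, which draws low signals together, the decrease was 5.81-fold in PC3 and 10.7-fold in DU145. Whether the decrease differed between the lines was not tested.

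**Figure D1:**
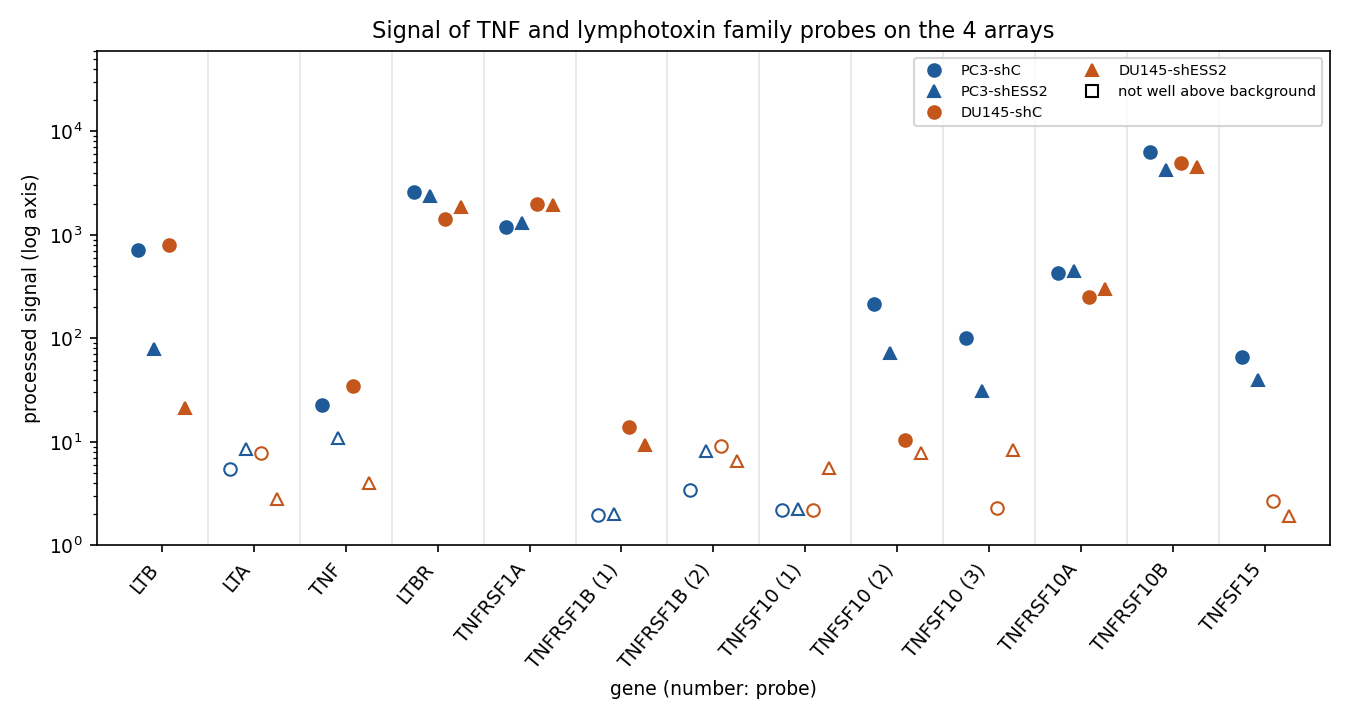
Processed signal (log axis) of each probe of the 10 genes on the 4 arrays, with circles for shC, triangles for shESS2, blue for PC3, orange for DU145 and open symbols for signals not well above background. The LTB triangles, at 79.1 and 21.1, lie below the circles at 714 and 794, while LTBR, TNFRSF1A, TNFRSF10A and TNFRSF10B stay within 1.63-fold in each line.

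TNF, the founding ligand of the family, was lower in the same direction at much weaker signals. It was 22.8 in PC3-shC and 34.6 in DU145-shC, both well above background, and 10.8 in PC3-shESS2 and 3.98 in DU145-shESS2, neither well above background. The decrease was therefore set against the higher of the dim signal and the lowest signal well above background on that array. In DU145 this gave a bound of at least 4.37-fold. In PC3-shESS2 the dim signal of 10.8 lay above that lowest signal, 9.02. The 2.33-fold decrease there thus compares the scaled signals as measured, 1 of them not well above background, and is not a bound. After normexp correction the ratios shrank to -0.36 and -0.56 on the log2 scale, short of 2-fold in both lines. LTA, the partner of LTB in the heterotrimer, was not well above background on any array, with signals of 5.43 and 8.52 in the PC3 pair and 7.75 and 2.83 in the DU145 pair, so no fold was computed.

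LTA, TNF and LTB lie next to each other in the class III region of the major histocompatibility complex on chromosome 6. The 250 bases before the start of LTB and of TNF are shown because these neighbouring ligands were both lower in both lines. They are RefSeq sequence of build GRCh38.p14, 5′ to 3′ along the gene. That of LTB is chr6:31582426-31582675 on the minus strand and that of TNF chr6:31575315-31575564 on the plus strand. Capitals mark matches, on either strand, to the κB consensus bound by NF-κB, to the NFAT core GGAAA, to the AP-1 motif TGANTCA and to TATAAA.
LTB: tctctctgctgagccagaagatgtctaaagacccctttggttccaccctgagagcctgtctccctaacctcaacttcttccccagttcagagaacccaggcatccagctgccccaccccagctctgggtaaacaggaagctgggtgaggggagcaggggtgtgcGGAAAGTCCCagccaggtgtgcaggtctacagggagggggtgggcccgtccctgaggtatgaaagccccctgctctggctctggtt
TNF: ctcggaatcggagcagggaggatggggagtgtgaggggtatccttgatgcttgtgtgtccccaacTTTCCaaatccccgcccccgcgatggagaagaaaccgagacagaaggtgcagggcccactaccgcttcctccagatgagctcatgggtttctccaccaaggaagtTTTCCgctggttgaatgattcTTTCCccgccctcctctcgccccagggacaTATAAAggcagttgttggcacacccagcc
The LTB stretch held 1 match to the κB consensus, GGAAAGTCCC, read on the opposite strand and starting 86 bases before the start of the gene. Its first bases are also the only NFAT core match of that stretch. The TNF stretch held 3 NFAT core matches, all on the opposite strand as TTTCC, and TATAAA 29 bases before the start, but no match to this κB consensus or to AP-1. Among the 250 bases before each of 35116 starts, searched in the same way, 5.21% held the κB consensus, 55.7% the NFAT core, 6.57% the AP-1 motif and 10.7% TATAAA. A match is a similarity of letters and not an observed binding site, and the arrays did not measure binding.

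Genes around this cluster were examined too. Of 16 listed neighbours, 14 had a matched probe and 12 gave a ratio in each line. In PC3 0 of the 12 were more than 2-fold lower or higher, against 3.87% and 3.88% of all genes, with a median log2 ratio of -0.20 against -0.05 over all genes. In DU145 1 was lower, against 2.47% of all genes, with a median of -0.01 against -0.02 over all genes. That gene was LST1, the next protein-coding gene after LTB and a leukocyte transcript, whose signal was 105 in DU145-shC and 40.3 in DU145-shESS2 (log2 ratio -1.42) and 23.1 and 15.0 in the PC3 pair (log2 ratio -0.76). Its DU145 ratio fell short of 2-fold after normexp correction. ATP6V1G2, a proton pump subunit gene upstream of the cluster, had log2 ratios of -0.90 in PC3 and -0.84 in DU145. AIF1, a macrophage gene, was dim on both shESS2 arrays and at least 1.41-fold lower in PC3 and 1.67-fold lower in DU145. Its control signals of 11.5 in PC3-shC and 13.2 in DU145-shC were themselves near the lowest signals well above background there, 8.94 and 8.65. NFKBIL1, which precedes LTA, had log2 ratios of -0.13 and -0.02. MICA and MICB, further upstream, were higher in both lines. Their log2 ratios in PC3 and DU145 were 0.31 and 0.64 for MICA and 0.33 and 0.20 for MICB.

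The receptors for these ligands differed less. LTBR, the lymphotoxin beta receptor, was 2590 in PC3-shC and 2390 in PC3-shESS2, and 1410 in DU145-shC and 1850 in DU145-shESS2. It was thus 1.19-fold lower in PC3 and 1.28-fold higher in DU145. TNFRSF1A, the broadly expressed TNF receptor, was 1190 and 1300 in the PC3 pair and 1990 and 1930 in the DU145 pair. Its log2 ratios of -0.01 and -0.08 were within 2 SD of spot error, and that in PC3 turned to 0.08 in the authors' scaled values. TNFRSF1B, a TNF receptor typical of immune cells, had 2 probes. Probe A_24_P54174 was dim in PC3, at 1.95 and 1.99, and well above background in DU145, at 13.8 in DU145-shC and 9.43 in DU145-shESS2, a 1.5-fold decrease. Probe A_33_P3322274 was not well above background on any array, with signals from 3.41 to 9.13. LTBR and TNFRSF1A were thus clearly detected in all 4 conditions, and TNFRSF1B only weakly and in DU145.

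The TRAIL ligand TNFSF10 was detected mainly in PC3. Probe A_23_P121253 gave 215 in PC3-shC and 72.3 in PC3-shESS2, a 3.28-fold decrease, and probe A_33_P3226810 gave 100 and 31.0, a 3.56-fold decrease. In DU145 the first probe gave 10.5 in DU145-shC, where the lowest signal well above background was 8.65, and 7.85 in DU145-shESS2, a decrease of at least 1.32-fold, and the other was dim on both arrays. A further probe, A_21_P0000113, was dim on all 4 arrays, from 2.20 to 5.60. The 2 probes with signal thus gave similar decreases in PC3. Averaging over all 3 probes brought the decrease to 2.33-fold.

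Both death receptors were well above background on all 4 arrays. TNFRSF10B was 6270 in PC3-shC and 4250 in PC3-shESS2, a 1.63-fold decrease, and 4950 and 4510 in the DU145 pair, a 1.13-fold decrease. TNFRSF10A was 430 and 443 in the PC3 pair and 252 and 302 in the DU145 pair, with log2 ratios of -0.10 and 0.22. TNFSF15 was 65.5 in PC3-shC and 39.4 in PC3-shESS2, a 1.83-fold decrease, and at 2.70 and 1.92 was not well above background in DU145.

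A comparison needed a signal clear of background in 1 or both conditions of a line. Of the 10 genes, 8 could be compared in PC3 and 7 in DU145. LTB, TNF and TNFSF10 were more than 2-fold lower in PC3, LTB and TNF were in DU145, and 0 were more than 2-fold higher in either line. The median log2 ratio was -0.79 in PC3 and -0.17 in DU145. The members were picked on this contrast, so nothing is read from these counts against the 3.87% and 2.47% of all genes.

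The difference between PC3 and DU145 was not itself used to choose the genes, and could be tested with the hairpin as a covariate, on 2 arrays per line. In limma, with Benjamini-Hochberg adjustment over 17126 genes, 28.5% of genes were called higher in PC3 and 23.8% higher in DU145 at an adjusted p under 0.05. That balance turned with the scaling and the filter, since 4874 genes were higher in PC3 and 4084 in DU145 here, 7120 and 2867 with median scaling, 3045 and 5950 in the authors' values, and 3429 and 9395 with no filter on dim genes. Each line was hybridised on its own slide and scanned on its own, so line and slide cannot be told apart. TNFRSF1A was higher in DU145, with a PC3 minus DU145 difference of -1.02 ± 0.18 (SE, limma adjusted p = 0.0162), a call that was lost with median scaling (-0.63). TNFSF10 and TNFSF15 entered the fit through the 2 PC3 arrays, where they were high, so their differences are given as a description. The mean of TNFSF10 was 3.39 higher in PC3 on the log2 scale, with the dim DU145-shESS2 signal set to the lowest signal well above background on that array, and 1.81 higher with the mean of its probes. TNFSF15, dim on both DU145 arrays, was at least 4.71-fold higher in PC3 with this scaling, and that ratio was 3.54 in the authors' values and 1.44 after normexp correction.

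LTBR was not called different between the lines, with a difference of 0.26 ± 0.24 (SE, limma adjusted p = 0.395). The same held for TNFRSF10A at 0.30 ± 0.19 (limma adjusted p = 0.258) and TNFRSF10B at -0.23 ± 0.22 (limma adjusted p = 0.419). The 1 residual degree of freedom of this fit is the difference in hairpin effect between the lines. The errors and p-values, that of TNFRSF1A included, therefore do not measure replicate variation within a line. A missed threshold does not show equal levels. LTB was chosen on these 4 values and TNF was dim on both shESS2 arrays, so no test is given for either. On the control arrays alone, scaled log2 levels were 1.44 in PC3-shC and 1.91 in DU145-shC for LTB, and -3.53 and -2.62 for TNF.

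Of 17126 genes clear of background in 2 or more conditions, those whose pattern over the 4 arrays lay closest to that of LTB were found by the Euclidean distance between scaled log2 signals, each centred on its own mean. The nearest was CSF2, the cytokine GM-CSF, at a distance of 1.25. Its signal was 171 in PC3-shC, 30.0 in PC3-shESS2, 106 in DU145-shC and 4.2 in DU145-shESS2. MIR3142HG, a long noncoding RNA, followed at 2.02, then ESS2 itself at 2.47, the actin-bundling protein gene PLS3 at 2.67 and TNF at 2.85. Dim signals were raised to the floor for this distance. With dim signals as measured, an alternative chosen after seeing the data, CSF2 (1.08) and MIR3142HG (1.94) kept their order, TNF moved up to rank 3 at 2.15 and PLS3 down to rank 9, so the order after the first 2 genes depends on the floor. The distance rests on 4 arrays and describes likeness of values.

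The rest of the pathway was read from 6 lists. Among 13 other ligands of the superfamily, 9 could be compared in PC3, with 0 more than 2-fold lower and 1 higher, against 3.87% and 3.88% of all genes, and a median log2 ratio of 0.56 against -0.05 over all genes. In DU145 7 could be compared, with 0 past 2-fold, against 2.47% lower and 2.36% higher of all genes, and a median of -0.02. Counts this small are near those shares. The gene that was higher in PC3 was TNFSF9, the ligand 4-1BBL that costimulates T cells, with signals of 100 and 365 in PC3 and 1950 and 3560 in DU145 (log2 ratios 1.73 and 0.83). CD70, another costimulatory ligand, had log2 ratios of 0.46 and -0.02. CD40LG, TNFSF8, TNFSF11 and TNFSF18 were not well above background on any array. TNFSF13, or APRIL, had log2 ratios of -0.82 and -0.51.

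Of 24 other receptors, 17 could be compared in each line. In PC3 4 were more than 2-fold higher, against 3.88% of all genes, and 0 lower, with a median of 0.22 against -0.05 over all genes. They were TNFRSF8 (CD30), at 31.4 in PC3-shC and 105 in PC3-shESS2 (log2 ratio 1.60), TNFRSF11B (osteoprotegerin, a decoy receptor for RANKL), at 269.7 and 858.5 (1.53), TNFRSF11A (RANK), at 84.6 and 197 (1.08), and TNFRSF10C, a TRAIL decoy receptor, at 11.2 and 25.0 (1.02). With median scaling TNFRSF8 and TNFRSF11B were still past 2-fold, and after normexp correction TNFRSF11B. In DU145 1 receptor was lower, against 2.47% of all genes, and 0 higher, with a median of -0.15 against -0.02. It was TNFRSF9, the receptor of TNFSF9, at 105 and 43.5 (log2 ratio -1.31), which was dim in PC3 and fell short of 2-fold in DU145 after normexp correction. TNFRSF10D, another TRAIL decoy receptor, was dim in PC3 and reached 1570 and 1310 in the DU145 pair.

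Among 40 adaptors, kinases and regulators downstream of the receptors, 39 could be compared in each line, and their medians of -0.07 in PC3 and -0.11 in DU145 were near those of all genes. In PC3 2 were more than 2-fold lower and 3 higher, against 3.87% and 3.88% of all genes, and in DU145 3 lower and 0 higher, against 2.47% and 2.36%. NFKBIA, the NF-κB inhibitor that NF-κB itself induces, was lower in both lines, with signals of 33020 and 15920 in PC3 and 25660 and 12100 in DU145 (log2 ratios -1.20 and -1.12). The deubiquitinase gene CYLD was also lower in PC3 (-1.03), with a ratio of 0.35 in DU145, but not past 2-fold after normexp correction or in the authors' values. CASP10 and TNFAIP3 were higher in PC3 (1.62 and 1.55), and TRAF1 was at least 5.77-fold higher there. TRAF1 was not past 2-fold after normexp correction, nor CASP10 with the mean of its probes. In DU145 TNFAIP3, a feedback inhibitor of NF-κB, was lower at 352 and 69.3 (-2.38), and so was the inhibitor of apoptosis BIRC3, at 725 and 345 (-1.11), against 1630 and 2900 (0.69) in PC3. The decrease of BIRC3 fell short of 2-fold after normexp correction. CASP10 and TRAF1 had ratios of -0.03 and -0.43 in DU145. RELA, the p65 subunit of NF-κB, had log2 ratios of 0.08 and 0.12, and TRADD, FADD and RIPK1, which bind to the receptors' death domains or to each other, lay between -0.16 and 0.41. Of 12 genes for the decay of TNF mRNA or the release of TNF, 11 could be compared in each line. In PC3 0 were past 2-fold, and in DU145 1 was higher, against 2.36% of all genes. It was ZFP36, or tristetraprolin, which promotes TNF mRNA decay, at 6610 in DU145-shC and 14900 in DU145-shESS2 (1.13), with a log2 ratio of 0.72 in PC3. The sheddase ADAM17 had ratios of 0.03 and -0.01.

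Of the 6 lists, the widest differences were in that of 22 genes known to be induced by TNF. The study had picked several of them on the PC3 arrays, so they are no independent evidence of a direction. In PC3 9 of 19 were more than 2-fold lower and 2 higher, against 3.87% and 3.88% of all genes, with a median of -0.81 against -0.05. In DU145 6 of 17 were lower and 2 higher, against 2.47% and 2.36% of all genes, with a median of -0.72 against -0.02. The lower genes in PC3 were led by the cytokine IL1B, at 43800 and 3170 (log2 ratio -3.93), and the chemokine CCL20, at 9630 and 1130 (-3.23), with CSF2 (-2.65) and PTGS2, or COX-2 (-2.24), next. In DU145 CXCL1 was lower at 5130 and 708 (-2.90), CCL20 at 255 and 39.1 (-2.75), CXCL8 at 1900 and 435 (-2.17, against 0.28 in PC3) and CXCL2 at 24400 and 9530 (-1.40). IL6 was higher in both, at 3600 and 24400 in PC3 (2.62) and 336 and 1930 in DU145 (2.48), and CXCL10 was higher in PC3 (2.21). Ratios below 0 were thus found for 13 of 19 genes in PC3 and 13 of 17 in DU145, against 55.6% and 52.7% of all genes compared, with IL6 an exception in both. By RT-qPCR, however, the paper found IL6 expression unchanged in PC3-shESS2 cells, so the array increase of IL6 in PC3 was not seen by that method. IL1B, TNFAIP6 and CXCL10 were dim in DU145.

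**Figure D2:**
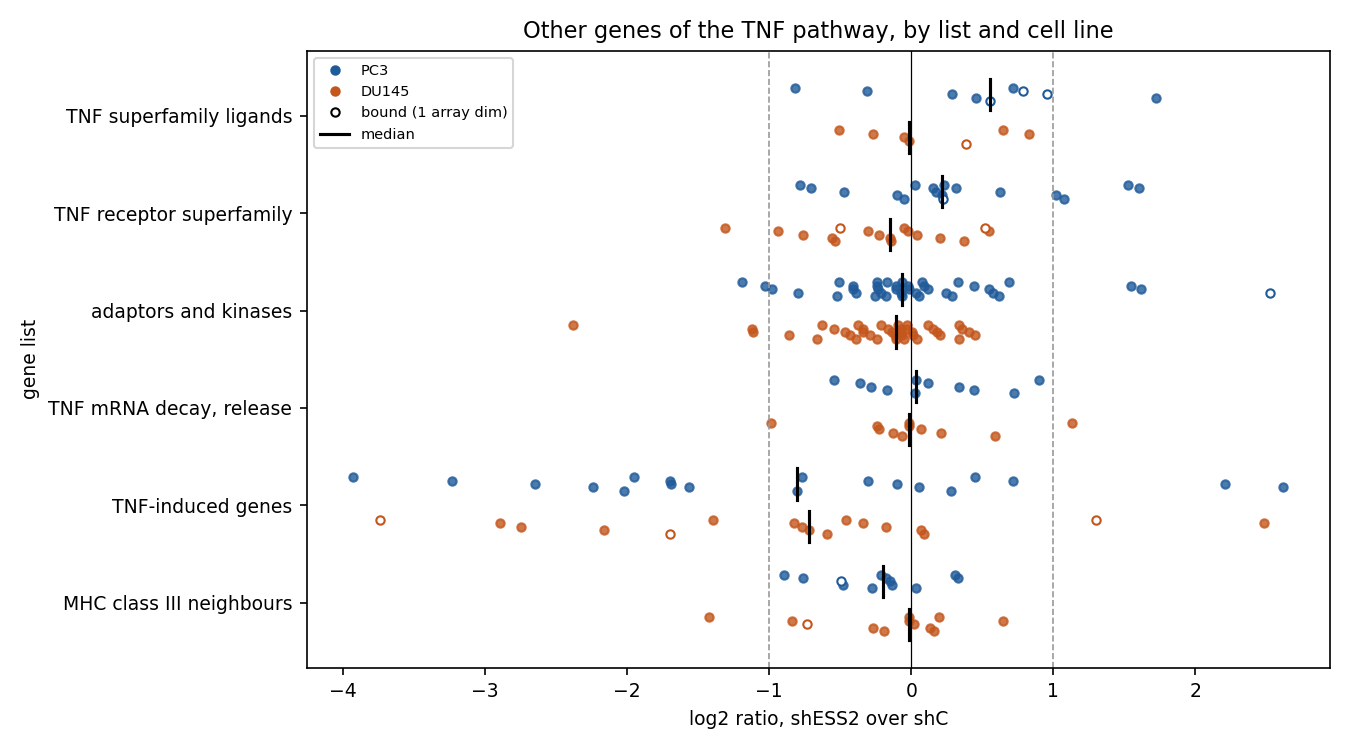
Log2 ratio of shESS2 over shC for each gene of the 6 lists in PC3 (blue) and DU145 (orange), with black bars for medians, open points for pairs with a dim array and dashed lines for 2-fold. The TNF-induced genes lie furthest left, with medians of -0.81 and -0.72, while the adaptors and kinases have medians of -0.07 and -0.11.

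A fit over both lines with the cell line as a block was the only replicated test of the hairpin that the 4 arrays allowed. In limma it called 0% of 17126 genes at an adjusted p under 0.05, while 1047 had an unadjusted p under 0.05. By that unadjusted measure stood 3 of 8 other ligands, 4 of 19 other receptors, 3 of 39 adaptors and kinases, 1 of 11 genes of TNF decay and release, 8 of 19 TNF-induced genes and 3 of 12 neighbours, none of which was called after adjustment. Several TNF-induced genes had been picked by the study on these PC3 arrays, so their count is no independent evidence.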

How the data were processed

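Cy3-labelled cRNA from 0.1 µg total RNA was hybridised to 4 one-colour Agilent arrays, 1 per condition. The deposited intensity values were spot signals from Agilent Feature Extraction (version 12.1.0.3 for PC3 and 12.0.3.1 for DU145). The authors also deposited processed intensity values, which were the same signals multiplied by a constant per array, and these served as an alternative. Probe coordinates in the files refer to hg19 and were not used. Probes were named by matching transcript accessions to RefSeq, which placed 35080 of 58201 probes on 25122 genes. Log2 signals were centred on the 75th percentile of each array, control and outlier spots were dropped, and the brightest probe on average stood for its gene. A signal not well above background was raised to the lowest signal that was if it lay below it, and its ratio is then a bound. A dim signal above that level was used as measured. Limma 3.58.1 in R 4.3.3 fitted hairpin and cell line over genes clear of background in 2 or more conditions, and p-values were adjusted by Benjamini-Hochberg. Ratios and fits were tested on simulated data. Python 3.11.15 and pandas 2.3.3 were used otherwise. Members, gene lists and the genes to be named were chosen with earlier results of these data known. Named from each list were up to 4 genes per line and direction, by size, among those past 2-fold and well above background on both arrays, and 5 genes most like LTB. Other genes named were chosen after their values were seen. Alternatives were median scaling, quantile normalization, normexp correction, probe means, retained outlier spots, the authors' values, other filters on dim signals and single probes. PC3 and DU145 files carried different annotation releases, and 85.5% of probes had the same accession in both.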

Additional observations from a re-analysis of the deposited data

Results flagged for a closer look

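Genes that differed in opposite directions in the 2 lines were looked for, among the 10 members beyond 2 times the 95th percentile of spot SD (0.0845 in PC3, 0.0998 in DU145) and among the other TNF lists past 2-fold in both lines, which gave 3 genes. Others, such as BIRC3 (0.69 and -1.11) and CXCL8 (0.28 and -2.17), were opposite but not past 2-fold in both. None of these differences between lines was tested, since each line had 1 array per condition. LTBR was lower in PC3-shESS2 (log2 ratio -0.26) and higher in DU145-shESS2 (0.35), a PC3 minus DU145 difference of -0.61, and the directions were the same under all 10 settings in which it was computed. TNFAIP3 was higher in PC3-shESS2 (1.55) and lower in DU145-shESS2 (-2.38), a difference of 3.93. PTGS2 was lower in PC3-shESS2 (-2.24) and at least 2.46-fold higher in DU145-shESS2, a difference of -3.54 or further from 0, with DU145-shC at a signal of 1.90 that was not well above background. Its DU145 ratio was not past 2-fold after normexp correction, and was left out where both arrays had to be well above background.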

How the results depend on the processing

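LTB was lower in both lines under all 10 settings, with log2 ratios from -3.42 to -2.54 in PC3 and from -5.57 to -3.41 in DU145. In PC3 it was -3.42 with median scaling, -3.06 with quantile normalization, -2.54 after normexp correction and -3.23 in the authors' values, and in DU145 -5.57 with quantile normalization and -3.41 after normexp correction. TNF was -1.32 in PC3 with median scaling, -1.34 with quantile normalization, -0.36 after normexp correction and -1.13 in the authors' values. In DU145 it was -0.56 after normexp correction and -3.16 with the plain dim signal. Normexp correction adds an offset to every signal, so differences of dim genes shrink by construction. It also cut the genes past 2-fold to 323 lower and 248 higher in PC3, from 649 and 650, and to 77 lower and 139 higher in DU145, from 416 and 397. Requiring both arrays well above background left 271 lower genes in DU145. Limma called 0 genes for the hairpin under all 10 fits run. The number called between lines stayed within 1.5 times of 8958, but which line had more calls turned with the scaling, from 7120 higher in PC3 and 2867 in DU145 with median scaling to 3045 and 5950 in the authors' values. A slide block could not be fitted apart from cell line. The hairpin fit pairs the conditions by cell line, and without that block it also called 0 genes (23 at an unadjusted p under 0.05, against 1047 with it). With no filter on dim genes 8912 had an unadjusted p under 0.05 and the smallest adjusted p was 0.0532, against 0.463 to 1 in the other fits. With 1 array per condition, no array could be left out within a line. Signals of TNF and TNFRSF1B lay near background, which limits both.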
